A study of Mus musculus with 12 samples.

Results

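The genes described here serve protein folding in the endoplasmic reticulum (ER) and the unfolded protein response that controls it. They were 36 genes listed by symbol and looked up by their Ensembl ID among the 39179 gene IDs of the count tables, and 36 of 36 had enough counts to be tested together with 12189 genes in all. Proteins that are to be secreted or set into membranes enter the ER through the Sec61 channel, lose their signal peptide, and are folded by chaperones, sugar-binding lectins and enzymes that form disulfide bonds. When folding falls behind, the sensors encoded by Ern1, Atf6 and Eif2ak3 start the unfolded protein response, which raises folding and degradation capacity and lowers translation. In T cells the pathway is known to be engaged after activation, when receptors and cytokines pass through the ER in large amounts.

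RNA was sequenced from 12 sorted samples of mouse CD4 T cells of C57BL/6 x OT-II mice, whose transgenic T cell receptor recognises the ovalbumin peptide OVA323-339. The 4 groups held 3 libraries each and were Th17 KO, Th17 WT, Th1 KO and Th1 WT, where KO cells came from OT-II x NKG2D-/- mice and lack the activating receptor NKG2D, encoded by Klrk1. All groups started from naive cells of lymph nodes and spleen that were grown with antigen-presenting cells (APCs), OVA323-339 and a-CD28, with polarization on day 0 and day 5 and harvest on day 8. Th17 cultures received the cytokines IL-23, IL-6 and IL-1b plus the blocking antibodies a-IL4 and a-IFNg, with IL-12 only from the second stimulation on. Th1 cultures received IL-12, IL-2 and the antibody a-IL-4. Cells were sorted by congenic Thy1 markers, KO cells as Thy1.1+ and WT cells as Thy1.2+ NKG2D+, so that genotype, Thy1 allele and the NKG2D gate differ together and cannot be told apart. The labels do not say which libraries came from separate cultures or animals. The p-values therefore measure the spread among these libraries alone, and that spread may be technical.

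Of the 12 libraries 9 had totals of 9108203 to 12688637 counts. The other 3 were shallow, Th17 KO 2 with 1722228, Th17 WT 2 with 2731909 and Th17 WT 3 with 1647232 counts, and a single ID without a name took 51%, 18.3% and 48.1% of them. Klrk1 was at 1.60 to 3.35 CPM in Th17 KO, 130.3 to 141 CPM in Th17 WT, 3.31 to 5.63 CPM in Th1 KO and 128 to 161 CPM in Th1 WT, where CPM are counts scaled to library size with TMM factors. Mitochondrial genes took 19% to 20.8% of the remaining counts in Th17 KO, 16.9% to 18.6% in Th17 WT, 14.6% to 15.1% in Th1 KO and 14.2% to 14.8% in Th1 WT. The 10 T cell markers of the list summed to 9680.3 to 10046 CPM in Th17 KO, 10432 to 11541 in Th17 WT, 10191 to 10843 in Th1 KO and 10609.7 to 11385 in Th1 WT. The 4 NK and ILC markers summed to 0.545 to 1.05, 0.254 to 1.04, 0.284 to 0.808 and 0.157 to 0.363 CPM in the same order, with Ncr1 at 0 throughout. The 2 CD8 T cell markers summed to 3.15 to 5.14, 1.04 to 6.61, 2.08 to 2.74 and 2.84 to 3.70 CPM. The 10 B and plasma cell markers, of a cell type rich in ER, summed to 13.5 to 23.1 CPM in Th17 KO, 11.3 to 14.6 in Th17 WT, 6.62 to 7.56 in Th1 KO and 6.58 to 6.89 in Th1 WT, of which most was Ighm, while Tnfrsf17 was at 0. The 11 myeloid and dendritic markers summed to 42.0 to 50.7, 47.5 to 63.3, 36.3 to 41.5 and 37.2 to 44.5 CPM in the same order of groups, most of it Cst3. The 6 Th17 markers summed to 139 to 140.2, 66.4 to 81.6, 1.80 to 5.07 and 0.943 to 1.25 CPM in this order. Among them Il17a was at 3.15 to 8.49 CPM in Th17 KO and 0 to 2.37 in Th17 WT. The 4 Th1 markers summed to 658 to 719.5, 888 to 1054, 1001 to 1226 and 1167 to 1445 CPM. Their member Ifng was at 38.9 to 66.9, 174 to 233, 547 to 784 and 657 to 929 CPM. Ifng was the 1 Th1 marker of the 4 that was lower in Th17 than in Th1 cells (edgeR, adjusted p under 0.05), in both genotypes. In the same test 2 others, Cxcr3 and Il12rb2, were higher in Th17 cells of both genotypes, so the Th1 markers did not move together. In bulk RNA, fewer cells with a transcript and less transcript per cell cannot be told apart.

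Per kilobase of exon, Calr, a calcium-binding lectin chaperone, was the most abundant of the 36 genes in each of the 4 groups. Its mean level was 192 CPM per kb in Th17 KO, 198 in Th17 WT, 245 in Th1 KO and 228 in Th1 WT. Hspa5 (BiP), the ER member of the heat shock 70 family, P4hb, the founding protein disulfide isomerase, and Hsp90b1 (GRP94), the ER member of the heat shock 90 family, took the next 3 places in every group. Their order among themselves differed between the groups, and in Th17 KO the levels of Hspa5 (158 ± 14.9 CPM per kb, SD, n = 3) and P4hb (157 ± 21.8) differed by less than their spread. Among the 36 genes Atf6 stood in place 27 to 29, with 14.1, 17.4, 11.7 and 12.7 CPM per kb in Th17 KO, Th17 WT, Th1 KO and Th1 WT, and Ern1 in place 32 to 35, with 5.46, 7.10, 4.25 and 4.25. Derl3, a derlin of the degradation machinery, was last in every group. It had 0 to 34 counts per library, and its 0 counts in Th17 WT 3 allow up to 3.11 CPM, a limit that covers counting error only, so its fold changes carry little weight.

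**Figure D1:**
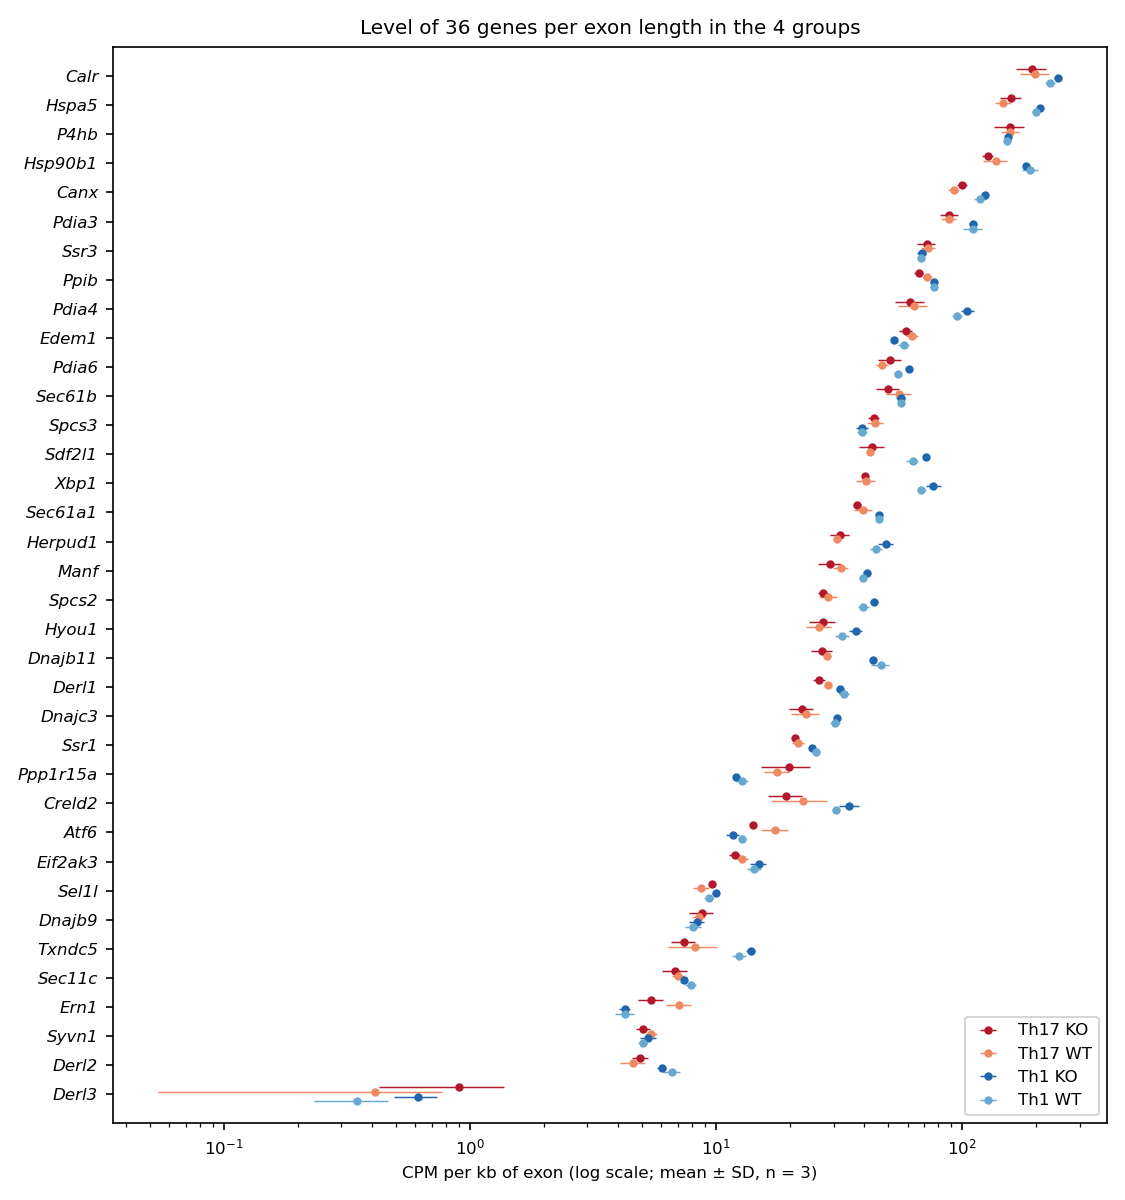
Level of each of the 36 genes in CPM per kilobase of exon (x axis, log scale) as mean ± SD of 3 libraries, with the groups in 4 colours and genes ordered by their level in Th17 KO. Calr is at 192 CPM per kb in Th17 KO and Derl3 at 0.901, and for most chaperones the Th1 groups stand right of the Th17 groups.

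Many genes of this pathway share a regulatory sequence near their start, the ER stress element, which is bound by NF-Y together with the cleaved form of ATF6. Promoter windows of RefSeq (build GRCm38.p6), from 250 bases before to 50 after each start, were present for 29 of the 36 genes and searched on both strands. The element, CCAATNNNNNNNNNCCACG, was in the windows of 9 of the 29 genes (31.0%), against 37 of 27025 genes (0.137%) in the whole table, these 9 among them. A second form, ATTGGNCCACG, was in 2 of 29 windows, those of Herpud1 and Dnajb11, against 12 genes (0.0444%) overall. The short motif CCACG, which both forms contain, was in 25 of 29 windows (86.2%) and in 35.5% of all genes. The core of a second kind of site, the UPR element TGACGTGG, was in 1 window, that of Txndc5, and in 0.714% of all genes. A match is only a run of letters and says nothing of binding in these cells. The stretches that hold an element before the start are shown because most, but not all, of these genes were lower in Th17 cells. Each stretch has 5 further bases on either side of its elements. Capitals mark the 2 fixed blocks of each element, read on the gene's own strand, where CGTGG followed by ATTGG is the element on the other strand.
Hspa5: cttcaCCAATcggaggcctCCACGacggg
Hsp90b1: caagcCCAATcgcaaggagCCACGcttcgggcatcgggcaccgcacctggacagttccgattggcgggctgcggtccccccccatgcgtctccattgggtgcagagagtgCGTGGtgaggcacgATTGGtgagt
Dnajc3: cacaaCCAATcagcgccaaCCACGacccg
Creld2: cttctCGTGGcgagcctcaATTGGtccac
Calr: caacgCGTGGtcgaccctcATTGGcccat
Canx: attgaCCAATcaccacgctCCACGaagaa
Pdia6: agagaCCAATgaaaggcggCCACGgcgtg
Herpud1: cgctgATTGGgCCACGttgga
Syvn1: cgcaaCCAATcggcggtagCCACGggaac
Derl3: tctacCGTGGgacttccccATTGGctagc
The stretch of Hspa5 lies at chr2:34772020-34772048 on the plus strand, from 70 to 42 bases before the start. That of Hsp90b1, chr10:86705528-86705661 on the minus strand, spans 2 elements, from 217 to 84 bases before the start. The stretch around the second form in Herpud1 lies at chr8:94386372-94386392 on the plus strand, from 57 to 37 bases before the start. The others on the plus strand are Dnajc3 at chr14:118937822-118937850, Creld2 at chr15:88819515-88819543, Pdia6 at chr12:17266486-17266514, Syvn1 at chr19:6046527-6046555 and Derl3 at chr10:75893237-75893265. On the minus strand are Calr at chr8:84847070-84847098 and Canx at chr11:50325795-50325823. In Dnajb11 the second form lies after the start, and its letters are not printed.

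**Figure D2:**
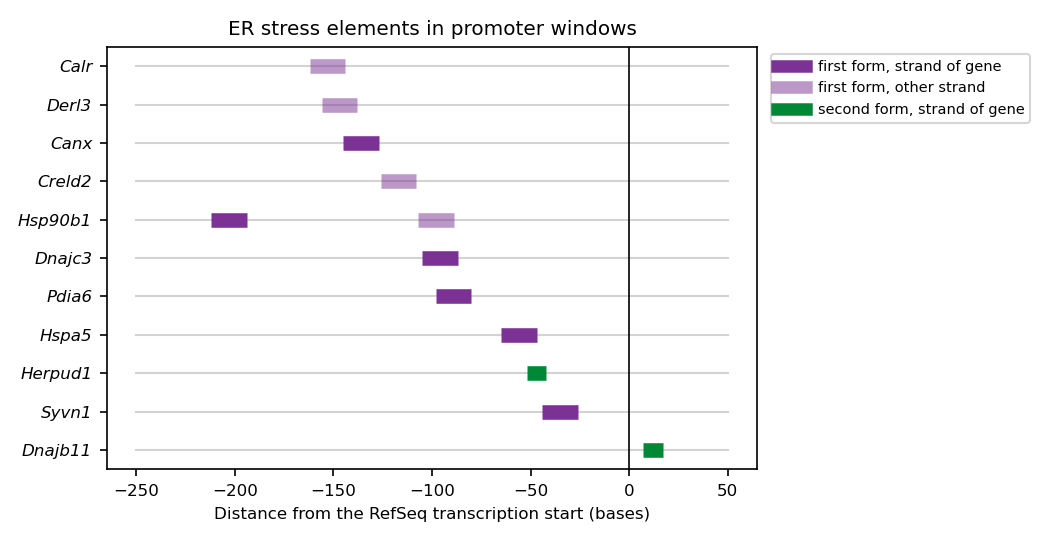
Position of each ER stress element (coloured bars) relative to the RefSeq transcription start (x axis, bases; 0 is the start and the grey line the searched window) in the 11 genes that hold one. Hsp90b1 has 2 elements of the first form, and the element of Dnajb11 alone lies after the start.

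The comparison of Th17 with Th1 cells asks how the 2 polarizing cultures differ, and it was made once in KO and once in WT cells. In both genotypes most of the folding machinery was lower in Th17 cells: 8 of 9 genes of the Hspa5 system, 4 of 5 disulfide isomerases and the transcription factor gene Xbp1 fell. Over all members that fell, the folds ran from 1.14 (Ppib) to 1.91 (Xbp1) in KO cells and from 1.16 (Sec61a1) to 1.67 (Dnajb11) in WT cells. The sensor genes Atf6 and Ern1 and the phosphatase subunit gene Ppp1r15a went the other way and were higher in Th17 cells. With KO cells 23 of the 36 genes were lower and 5 higher in Th17 (edgeR quasi-likelihood test, adjusted p under 0.05), which is 63.9% and 13.9% of them, while 26.7% of all genes tested were lower and 26.9% higher. With WT cells 20 were lower (55.6%) and 4 higher (11.1%), while 23.6% of all genes tested were lower and 23.5% higher. The median log2 fold change of the 36 genes was -0.30 in KO and -0.23 in WT cells, and that of all genes tested 0.00 and -0.01. The counts by role below are to be read against the shares of all genes tested given here.

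Summed over the 36 genes, the Th17 KO libraries reached 6115, 6445 and 6608 CPM, against 7753, 8047 and 7805 CPM for Th1 KO. In WT cells it was 6241, 6638 and 6616 CPM in Th17, against 7338, 7881 and 7839 CPM in Th1. No Th17 library reached the lowest Th1 library of its genotype. Taken gene by gene, the CPM of the 3 Th17 KO libraries lay all below those of the 3 Th1 KO libraries for 24 of the 36 genes and all above for 5, where 28.6% and 27.1% of all genes tested did so. With WT cells the ranges lay apart for 21 genes below and 3 above, where 27.5% and 24.6% of all genes tested did so. The 2 comparisons have no library in common but come from 1 fit with a shared estimate of the spread. In both, 24 genes passed with the same direction, which is 24 of the 28 called with KO cells and 24 of the 24 called with WT cells. Of all 12189 genes tested, 6534 passed with KO cells and 5738 with WT cells. How many of those passed in both is not given, so the overlap of the 36 genes has no background to be read against. Calr, Edem1, Eif2ak3 and Ppib passed with KO cells and not with WT cells, and Derl3, Dnajb9, P4hb, Sec11c, Sec61b, Sel1l, Ssr3 and Syvn1 in neither. Without the 3 shallow libraries, which leaves a single Th17 WT library, 28 genes were called with KO cells and 25 with WT cells. The higher mitochondrial share and the higher marker sums of B and plasma cells and of myeloid and dendritic cells in Th17 libraries, given above, moved with this difference, and their part in it was not tested.

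**Figure D3:**
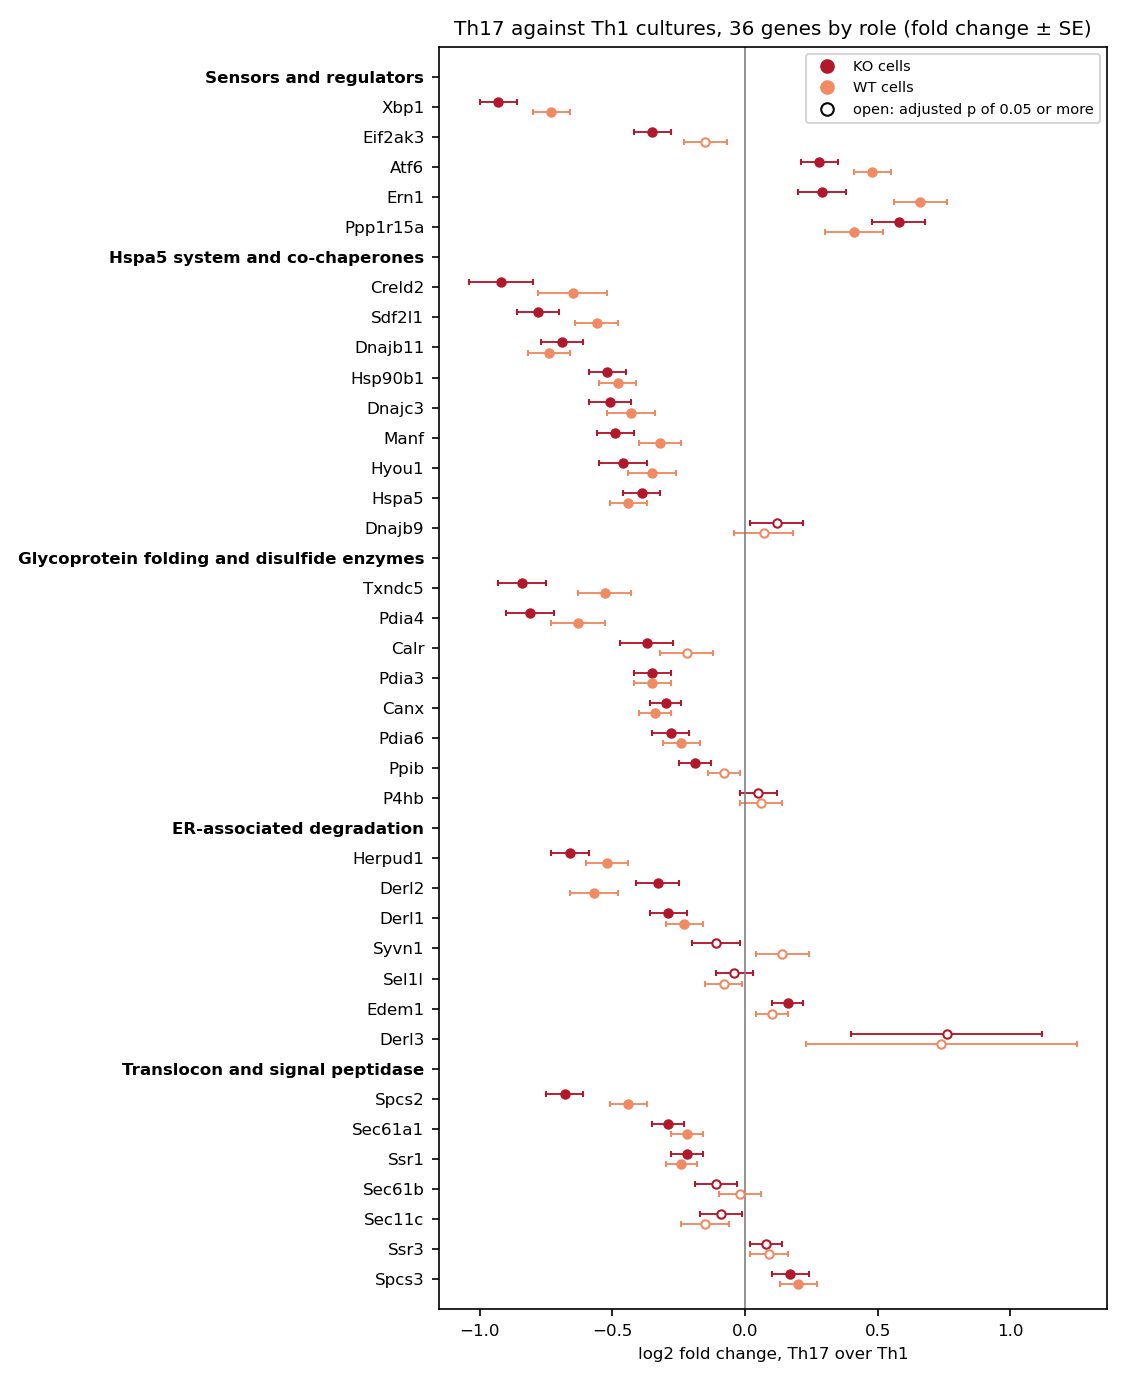
Log2 fold change of Th17 over Th1 (x axis; point ± SE) for the 36 genes in KO cells (red) and WT cells (orange), grouped by role, with open points where the adjusted p was 0.05 or more. Points left of 0 are lower in Th17; Xbp1 has the lowest value in KO cells, at -0.93, and the Hspa5 system lies left of 0 except for Dnajb9.

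Of the 5 sensor and regulator genes all 5 passed in KO cells and 4 of 5 in WT cells, in opposite directions. Xbp1 (ENSMUSG00000020484, chromosome 11, 5520659 to 5525893 on GRCm38) encodes the transcription factor that becomes active once Ern1 splices its mRNA, and gene counts do not tell the spliced from the unspliced form. Its level was 133, 130.2 and 127 CPM in Th17 KO, against 256, 259.9 and 229 CPM in Th1 KO. In WT cells it was 135, 142 and 118 CPM in Th17, against 231, 221 and 213 CPM in Th1. The lowest Th1 library of either genotype stood well above the highest Th17 library. The log2 fold change was -0.93 ± 0.07 (SE, adjusted p = 1.57e-11) in KO cells and -0.73 ± 0.07 (adjusted p = 3.70e-09) in WT cells, so that Xbp1 had the smallest p of the 36 genes in both.

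Atf6 (chromosome 1, 170704674 to 170867771) encodes the sensor that is cut in the Golgi to free a transcription factor. It had 130.0, 130.2 and 131 CPM in Th17 KO libraries, against 102, 115 and 106 CPM in Th1 KO libraries. With WT cells it had 166, 176 and 138 CPM in Th17, against 118, 121 and 113 CPM in Th1. Neither pair of groups overlapped, and the log2 fold change was 0.28 ± 0.07 (adjusted p = 0.00187) in KO and 0.48 ± 0.07 (adjusted p = 4.32e-06) in WT cells. Ern1 (chromosome 11, 106394650 to 106487852) encodes IRE1, the kinase and RNase that splices Xbp1 mRNA. Its values were 39.9, 50.4 and 43.5 CPM in Th17 KO, against 35.3, 32.6 and 36.2 CPM in Th1 KO. For WT cells they were 50.1, 61.7 and 62.3 CPM in Th17, against 36.2, 31.2 and 36.9 CPM in Th1. All Th17 libraries were above all Th1 libraries of their genotype, by 0.29 ± 0.09 (adjusted p = 0.0101) in KO and 0.66 ± 0.10 (adjusted p = 4.49e-06) in WT cells on the log2 scale. The Ern1 call in KO cells was lost without Th1 KO 2 (adjusted p = 0.0563) or Th17 KO 3 (adjusted p = 0.0637).

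Eif2ak3 (chromosome 6, 70844515 to 70905245) encodes PERK, the kinase that lowers translation by phosphorylating eIF2a. Its level was 67.9, 75.6 and 72.1 CPM in Th17 KO libraries, against 82.4, 92.8 and 94.8 CPM in Th1 KO libraries, with no overlap (log2 fold change -0.35 ± 0.07, adjusted p = 2.82e-04). In WT cells the groups overlapped, with 75.2, 81.9 and 74.8 CPM in Th17, against 79.3, 87.8 and 90.7 CPM in Th1 (log2 fold change -0.15 ± 0.08, adjusted p = 0.109, and 0.0365 without Th1 WT 1). Ppp1r15a, whose product GADD34 directs a phosphatase to eIF2a and so undoes the work of PERK, was higher in Th17, by 0.58 ± 0.10 (adjusted p = 2.35e-05) in KO and 0.41 ± 0.11 (adjusted p = 0.00268) in WT cells. Its highest library was the shallow Th17 KO 2 at 71.4 CPM from 68 counts, and without the shallow libraries the gene still passed in both genotypes.

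**Figure D4:**
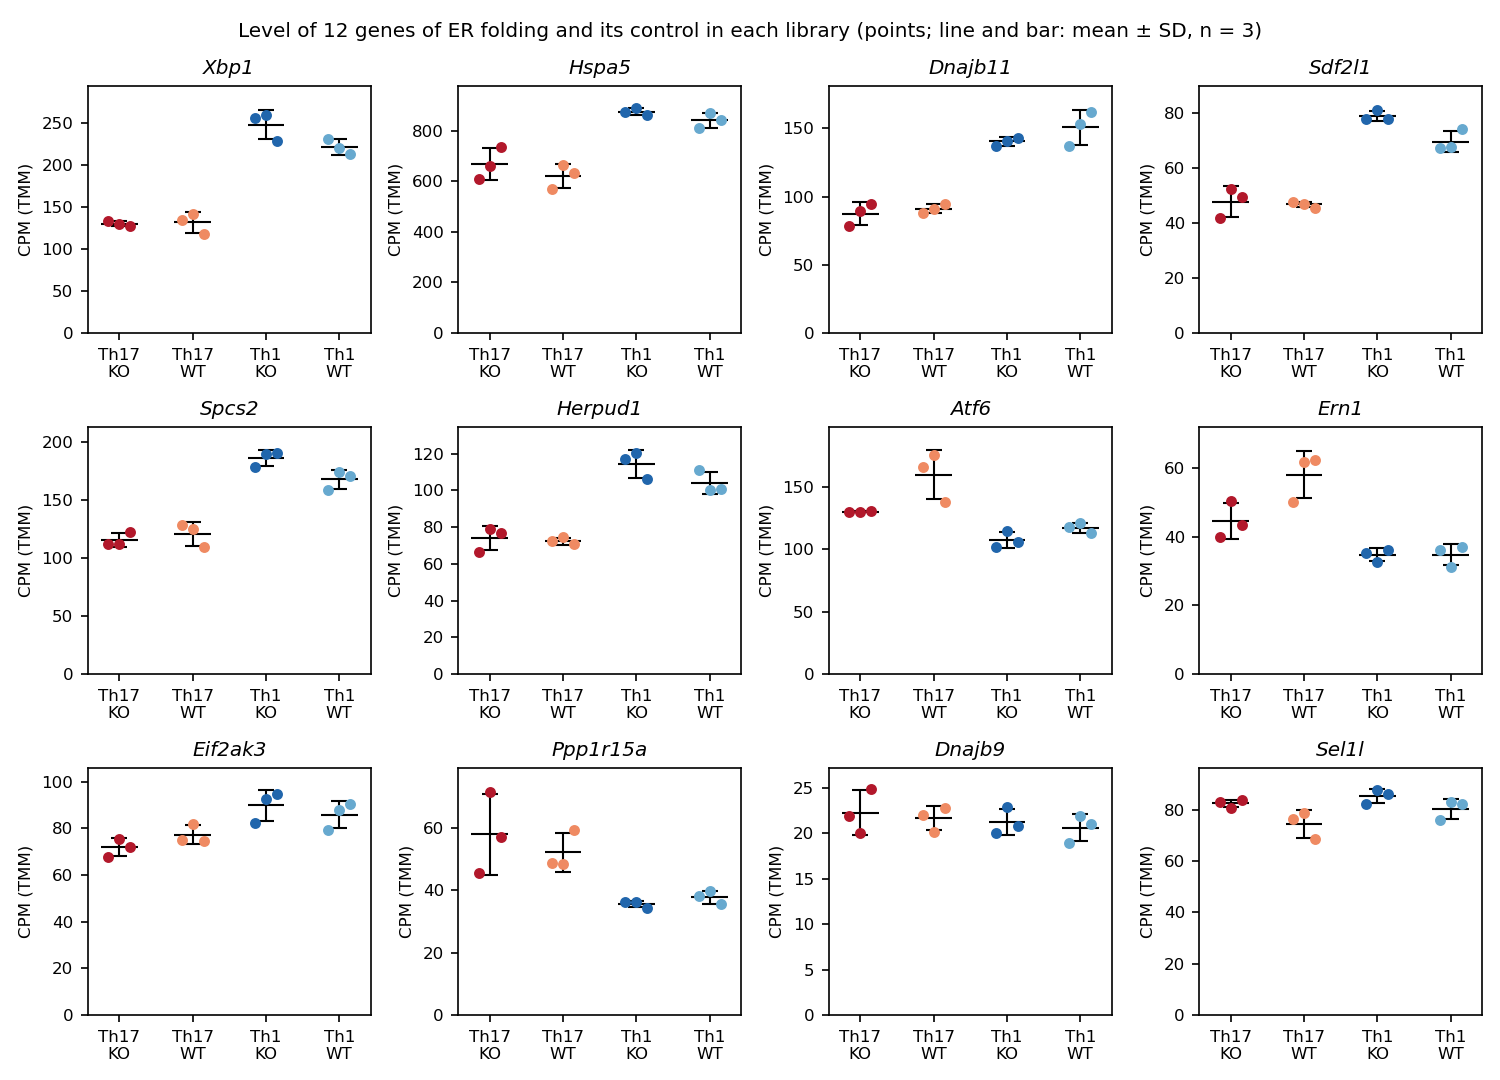
CPM (y axis, from 0) of 12 of the 36 genes in every library (points) with the mean ± SD of 3 libraries (line and bar) for Th17 KO, Th17 WT, Th1 KO and Th1 WT. Xbp1 lies between 118 and 142 CPM in Th17 libraries and between 213 and 259.9 CPM in Th1 libraries, while the means of Atf6 and Ern1 are highest in Th17 WT.

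The Hspa5 system was the most uniform group, with 8 of 9 genes lower in Th17 in each genotype and Dnajb9 not past the threshold in either. Hspa5 (chromosome 2, 34771970 to 34777547), the chaperone that also keeps the sensors inactive, had 609, 659.6 and 734 CPM in Th17 KO, against 875, 889 and 861 CPM in Th1 KO. In WT cells it had 571, 663 and 634 CPM in Th17, against 811, 871 and 841 CPM in Th1. The groups were apart in both genotypes, with log2 fold changes of -0.39 ± 0.07 (adjusted p = 3.18e-05) in KO and -0.44 ± 0.07 (adjusted p = 9.64e-06) in WT cells. Hsp90b1 (chromosome 10, 86690209 to 86705509) fell by a like amount, to 485, 535 and 514 CPM in Th17 KO against 720.3, 741 and 735 CPM in Th1 KO. Its WT libraries had 508, 525 and 625 CPM in Th17, against 698, 790.2 and 802 CPM in Th1, and the log2 fold change was -0.52 ± 0.07 (adjusted p = 7.83e-07) in KO and -0.48 ± 0.07 (adjusted p = 4.30e-06) in WT cells.

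Larger differences were seen for co-chaperones that work with Hspa5. Dnajb11 (chromosome 16, 22857845 to 22879634), the ERdj3 protein that hands unfolded clients to Hspa5, had 78.3, 89.3 and 94.7 CPM in Th17 KO, against 137, 141 and 143 CPM in Th1 KO. In WT cells its values were 88.1, 91.0 and 94.5 CPM in Th17, against 137, 153 and 162 CPM in Th1. Its log2 fold change was -0.69 ± 0.08 (adjusted p = 2.50e-08) in KO and -0.74 ± 0.08 (adjusted p = 2.40e-08) in WT cells, with no overlap between the groups. Sdf2l1 (chromosome 16, 17130138 to 17132383), which forms a complex with ERdj3, had 41.7, 52.5 and 49.4 CPM in Th17 KO, against 78.0, 81.3 and 77.8 CPM in Th1 KO. With WT cells it had 47.7, 47.1 and 45.7 CPM in Th17, against 67.3, 67.6 and 74.2 CPM in Th1. This gave -0.78 ± 0.08 (adjusted p = 4.07e-09) in KO and -0.56 ± 0.08 (adjusted p = 3.98e-06) in WT cells. The other 4 lower genes were Creld2, a stress-induced ER protein (-0.92 in KO and -0.65 in WT cells), Dnajc3, the ERdj6 co-chaperone (-0.51 and -0.43), Manf, a small factor that binds Hspa5 (-0.49 and -0.32), and Hyou1, which reloads Hspa5 with ATP (-0.46 and -0.35). In WT cells Creld2 and Hyou1 did not pass without Th17 WT 1 (log2 fold changes of -0.39 and -0.22, adjusted p = 0.07 and 0.0675), and Dnajc3 moved to -0.28 (adjusted p = 0.0152). Manf shares 146 exon bases with Dcaf1 on the opposite strand, so its value is uncertain, since the library kit does not mark strand. Dnajb9 (ERdj4) differed by 0.12 ± 0.10 (adjusted p = 0.35) in KO and 0.07 ± 0.11 (adjusted p = 0.64) in WT cells, with overlapping groups in both.

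Among the 8 genes of glycoprotein folding and disulfide exchange, 7 were lower in Th17 in KO cells and 5 in WT cells, and 0 were higher. The shares of all genes tested were 26.7% and 23.6% lower and 26.9% and 23.5% higher. Txndc5 (chromosome 13, 38500079 to 38528824), a disulfide isomerase also called ERp46, had 33.2, 29.4 and 37.0 CPM in Th17 KO, against 64.5, 59.6 and 62.3 CPM in Th1 KO. In WT cells it had 38.2, 44.7 and 28.0 CPM in Th17, against 51.7, 58.5 and 57.1 CPM in Th1. The groups stood apart in both genotypes, with the lowest WT value in the shallow Th17 WT 3 at 27 counts, and the log2 fold change was -0.84 ± 0.09 (adjusted p = 1.04e-08) in KO and -0.53 ± 0.10 (adjusted p = 5.98e-05) in WT cells. Pdia4 (ERp72) was close to it at -0.81 ± 0.09 (adjusted p = 5.30e-07) and -0.63 ± 0.10 (adjusted p = 2.25e-05). Smaller falls were measured for Pdia3 (-0.35 in both), the membrane lectin Canx (-0.30 in KO and -0.34 in WT cells) and Pdia6 (-0.28 and -0.24). Calr, the soluble partner of Canx, was lower in KO cells (-0.37 ± 0.10, adjusted p = 0.00438) and not past the threshold in WT cells (-0.22 ± 0.10, adjusted p = 0.0784). The WT value was -0.43 (adjusted p = 4.54e-04) without the 3 shallow libraries, and Calr also passed without Th17 WT 3 (-0.30, adjusted p = 0.0157), Th17 KO 1 (adjusted p = 0.023) or Th17 KO 2 (adjusted p = 0.0312). Ppib (cyclophilin B), a prolyl isomerase, passed in KO cells alone (-0.19 ± 0.06, adjusted p = 0.00883), against -0.08 ± 0.06 in WT cells (adjusted p = 0.276). P4hb differed by 0.05 ± 0.07 (adjusted p = 0.569) in KO and 0.06 ± 0.08 (adjusted p = 0.567) in WT cells, so that of the 5 disulfide isomerases it was the 1 that did not pass.

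ER-associated degradation, which draws misfolded proteins back to the cytosol for the proteasome, was split. Of its 7 genes 3 were lower in Th17 in both genotypes, and 1, Edem1, was higher in KO cells. Among all genes tested, 26.7% were lower and 26.9% higher in KO cells, and 23.6% and 23.5% in WT cells. Herpud1 (chromosome 8, 94386438 to 94395377), which assembles the degradation complex, had 66.7, 78.8 and 76.8 CPM in Th17 KO, against 117, 120.2 and 106 CPM in Th1 KO. In WT cells it had 72.2, 74.4 and 70.6 CPM in Th17, against 111, 100.1 and 101 CPM in Th1. All Th17 libraries were below all Th1 libraries, and the log2 fold change was -0.66 ± 0.07 (adjusted p = 4.43e-08) in KO and -0.52 ± 0.08 (adjusted p = 5.54e-06) in WT cells. Derl1 and Derl2, membrane proteins of the exit channel, were lower by -0.29 and -0.33 in KO and -0.23 and -0.57 in WT cells on the log2 scale. Derl1 in WT cells did not pass without Th17 WT 1 (adjusted p = 0.0711), and Derl2 is uncertain because it shares 231 exon bases with Mis12 on the opposite strand. Edem1, which marks misfolded glycoproteins, was at 0.16 ± 0.06 in KO cells (adjusted p = 0.0408) and 0.10 ± 0.06 in WT cells (adjusted p = 0.191). The KO call of Edem1 was lost without Th17 KO 3 (log2 fold change 0.09, adjusted p = 0.295), without any 1 of Th1 KO 1, 2 and 3 (adjusted p = 0.126, 0.0775 and 0.0844) and without Th1 WT 2 or 3 (adjusted p = 0.0559 and 0.0505). The ubiquitin ligase Syvn1 (HRD1) and its partner Sel1l passed in neither genotype, with values of -0.11 and -0.04 in KO and 0.14 and -0.08 in WT cells, and Syvn1 shares 91 exon bases with Mrpl49. Derl3 gave 0.76 ± 0.36 (adjusted p = 0.0809) in KO and 0.74 ± 0.51 (adjusted p = 0.241) in WT cells on its few counts. Without Th17 KO 1 the KO value of Derl3 was 1.10 (adjusted p = 0.0307).

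At the point of entry, 3 of 7 translocon and signal peptidase genes were lower in Th17 and 1 was higher, in both genotypes. For all genes tested the shares were 26.7% lower and 26.9% higher in KO cells, and 23.6% and 23.5% in WT cells. Spcs2 (chromosome 7, 99837569 to 99863462), a subunit of the signal peptidase, had 112, 112 and 122 CPM in Th17 KO, against 178, 189 and 190.4 CPM in Th1 KO. In WT cells its values were 128, 125 and 109 CPM in Th17, against 158, 174 and 170.3 CPM in Th1. The groups did not overlap, and the log2 fold change was -0.68 ± 0.07 (adjusted p = 4.04e-09) in KO and -0.44 ± 0.07 (adjusted p = 7.59e-06) in WT cells. Its partner subunit Spcs3 was higher in Th17, by 0.17 ± 0.07 (adjusted p = 0.0304) in KO and 0.20 ± 0.07 (adjusted p = 0.0185) in WT cells. The Spcs3 call was lost without Th17 KO 1, Th17 KO 3, Th1 KO 1 or Th1 KO 3 in KO cells (adjusted p = 0.0775, 0.137, 0.0701 and 0.172), and without Th17 WT 1, Th17 WT 2 or Th1 WT 3 in WT cells (adjusted p = 0.097, 0.0932 and 0.101). Sec61a1, the pore of the channel, was at -0.29 in KO and -0.22 in WT cells (adjusted p = 2.94e-04 and 0.00648, the second 0.0731 without Th17 WT 1), and Ssr1 of the translocon-associated complex at -0.22 and -0.24 (adjusted p = 0.00252 and 0.00187). Sec61b, Ssr3 and the catalytic signal peptidase subunit Sec11c lay between -0.15 and 0.09 and did not pass, except that Sec11c passed in KO cells without Th17 KO 3 (-0.22, adjusted p = 0.0464).

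Set beside the promoter sequences shown above, 9 of the 11 genes with an ER stress element of either form were lower in Th17 in KO cells and 8 in WT cells, and 0 were higher. The 2 that did not pass in either genotype were Syvn1 and Derl3, and Calr was the third in WT cells. Of the 18 genes with a window and no element, 10 were lower and 3 higher in KO cells, and 8 lower and 2 higher in WT cells. Over all genes tested, 26.7% were lower and 26.9% higher in KO cells, and 23.6% and 23.5% in WT cells. A link between the element and the direction of change was not tested. Xbp1, Sdf2l1, Txndc5 and Pdia4, which had some of the lowest fold changes in KO cells, have no element of either form within their windows. Atf6, Derl1, Hyou1, Manf, Sec11c, Sec61a1 and Spcs3 had no window in the table used.

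The other genes of the pathway were counted by list, to be read against the shares of all genes tested, 26.7% lower and 26.9% higher in KO cells and 23.6% lower and 23.5% higher in WT cells. Of 13 genes of the ATF4 and CHOP branch, which lies downstream of PERK, 8 were lower and 2 higher in Th17 in KO cells, and 6 were lower and 2 higher in WT cells. Trib3, a pseudokinase and target of ATF4, had a log2 fold change of -1.97 ± 0.15 (adjusted p = 2.20e-11) in KO and -1.11 ± 0.16 (adjusted p = 2.57e-06) in WT cells. Asns, which makes asparagine, was at -0.79 and -0.77, and Atf4 itself at -0.50 and -0.48. Of 12 genes of the oligosaccharyltransferase, which attaches sugars to proteins entering the ER, 8 were lower and 1 higher in KO cells, and 7 were lower and 1 higher in WT cells, with Ddost at -0.73 and -0.40 and Rpn1 at -0.74 and -0.58. Other folding and glycan genes gave 11 lower and 6 higher of 23 tested in KO cells, and 8 lower and 5 higher in WT cells. Dnajc10, a reductase of the ER, was among the higher ones (0.67 ± 0.06, adjusted p = 7.77e-10, in KO and 0.45 ± 0.06, adjusted p = 1.27e-06, in WT cells). Of 20 other degradation genes 7 were lower and 3 higher in KO cells, and 8 lower and 2 higher in WT cells. Of 16 other translocon and signal recognition genes 6 were lower and 4 higher in KO cells, and 6 lower and 2 higher in WT cells. COPII export from the ER gave 7 lower and 3 higher of 22 in KO cells, and 6 lower and 3 higher in WT cells. Among 14 other sensors and regulators 5 were lower and 4 higher in each genotype, with Creb3l2, a membrane-bound transcription factor related to ATF6, at 1.27 ± 0.10 (adjusted p = 3.86e-11) in KO and 1.11 ± 0.10 (adjusted p = 2.37e-09) in WT cells. Ppp1r15b, the constitutive counterpart of Ppp1r15a, was at -0.75 ± 0.06 (adjusted p = 1.49e-10) and -0.63 ± 0.06 (adjusted p = 8.50e-09), the opposite direction from Ppp1r15a.

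The comparison of KO with WT cells asks what goes with loss of NKG2D, and it was made in each culture. In Th17 cells the sensor genes Atf6 and Ern1 were lower in KO cells by 1.25-fold and 1.29-fold, and no other of the 36 genes passed. That is 2 of 36 lower (5.56%) and 0 higher, while 4.02% of all genes tested were lower and 1.81% higher. The median log2 fold change was -0.04 for the 36 genes and 0.00 for all genes tested. The summed level of the 36 genes averaged 6389 ± 251 CPM in Th17 KO and 6498 ± 223 CPM in Th17 WT (SD, n = 3 each), a difference within their spread. The Th17 KO libraries also had a higher mitochondrial share and a lower T cell marker sum than the Th17 WT libraries, without overlap, and 3 of the 10 T cell markers (Lck, Cd4 and Trbc2) were lower in Th17 KO. Th17 KO also had 4 of the 5 tested Th17 markers higher and 2 of the 4 Th1 markers (Ifng and Il12rb2) lower than Th17 WT. The part of these differences in the calls of Atf6 and Ern1 was not tested.

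Atf6 in Th17 KO, at 130.0, 130.2 and 131 CPM, was below each of the Th17 WT libraries, at 166, 176 and 138 CPM. The log2 fold change was -0.33 ± 0.08 (adjusted p = 0.00844). It was lost without Th17 WT 2 (-0.27, adjusted p = 0.0718), with all libraries thinned to 844327 counts (adjusted p = 0.116) and with only the Th17 libraries in the fit (adjusted p = 0.0526). Ern1 had 39.9, 50.4 and 43.5 CPM in Th17 KO, against 50.1, 61.7 and 62.3 CPM in Th17 WT, and the highest KO library, the shallow Th17 KO 2 at 48 counts, overlapped the lowest WT library. Its log2 fold change was -0.37 ± 0.10 (adjusted p = 0.0332), a call that 12 of 21 alternatives kept. Ern1 did not pass without Th17 KO 1, Th17 KO 3, Th17 WT 2 or Th17 WT 3 (adjusted p = 0.216, 0.0745, 0.175 and 0.0759), nor without the 3 shallow libraries (-0.27, adjusted p = 0.274) or with DESeq2 (adjusted p = 0.0841). Both genes were still higher in Th17 KO than in Th1 KO, as given above.

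The third sensor gene, Eif2ak3, was at -0.13 ± 0.08 (adjusted p = 0.48), from 67.9, 75.6 and 72.1 CPM in Th17 KO and 75.2, 81.9 and 74.8 CPM in Th17 WT. Xbp1 was at -0.04 ± 0.07 (adjusted p = 0.856) and Hspa5 at 0.11 ± 0.07 (adjusted p = 0.487), and in each of them the KO and WT libraries overlapped. Leaving out Derl3, the 33 other genes that did not pass lay between -0.17 (Syvn1) and 0.13 (Sel1l), with standard errors of 0.06 to 0.14. Of these, Ppib and Derl1 had all 3 KO libraries below the WT libraries and Sel1l had them above. With Atf6, that was 8.33% of the 36 genes below and 2.78% above. The shares of all genes tested are not given for this comparison, and in Th1 cells they were 13.4% and 11.1%. Such gaps are therefore not read as a trait of these genes.

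In Th1 cells 0 of the 36 genes passed (edgeR, with 5 at an unadjusted p under 0.05; DESeq2 called 0 and limma-voom 2), while 4.61% of all genes tested did. Log2 fold changes were positive for 24 genes and negative for 12, with a median of 0.04. There were 8 genes with all 3 Th1 KO libraries above the Th1 WT libraries (Hyou1, Sdf2l1, Calr, Pdia4, Pdia6, Txndc5, Derl3 and Spcs2) and 1, Edem1, with them below, which is 22.2% and 2.78% of the 36 genes, where 11.1% and 13.4% of all genes tested did so. Sdf2l1, which had the smallest p, was at 78.0, 81.3 and 77.8 CPM in Th1 KO, against 67.3, 67.6 and 74.2 CPM in Th1 WT, with a log2 fold change of 0.18 ± 0.07 (adjusted p = 0.142). Xbp1 was at 256, 259.9 and 229 CPM in Th1 KO, against 231, 221 and 213 CPM in Th1 WT (0.16 ± 0.06, adjusted p = 0.166), and the groups overlapped. For Spcs2 the values were 178, 189 and 190.4 CPM in Th1 KO, against 158, 174 and 170.3 CPM in Th1 WT (0.15 ± 0.06, adjusted p = 0.208). The 2 genes called by limma-voom were Xbp1 (adjusted p = 0.0349) and Sdf2l1 (adjusted p = 0.0318), while it called 1071 of all 12189 genes tested. With only the Th1 libraries in the fit, Sdf2l1 (adjusted p = 0.0383) and Hyou1 (adjusted p = 0.0387) passed, as did 922 of all 11680 genes tested there. With a block by library code in the edgeR fit, Xbp1 (adjusted p = 0.0326), Sdf2l1 (adjusted p = 0.0414) and Hyou1 (adjusted p = 0.00968) passed, all higher in KO cells. In that fit 1315 of all 12189 genes tested were called, against 562 without the block, and the labels do not say whether the codes mark pairs.

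The sensors and the chaperone that binds them showed no call in Th1 cells either. Atf6 was at -0.12 ± 0.07 (adjusted p = 0.383), Ern1 at -0.01 ± 0.09 (adjusted p = 0.99), Eif2ak3 at 0.07 ± 0.07 (adjusted p = 0.703) and Hspa5 at 0.06 ± 0.07 (adjusted p = 0.768), and in each the KO and WT libraries given above overlapped. Leaving out Derl3, the genes lay between -0.14 (Derl2) and 0.18 (Hyou1). The summed level of the 36 genes averaged 7869 ± 157 CPM in Th1 KO and 7686 ± 302 CPM in Th1 WT (SD, n = 3 each), which overlapped.

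**Figure D5:**
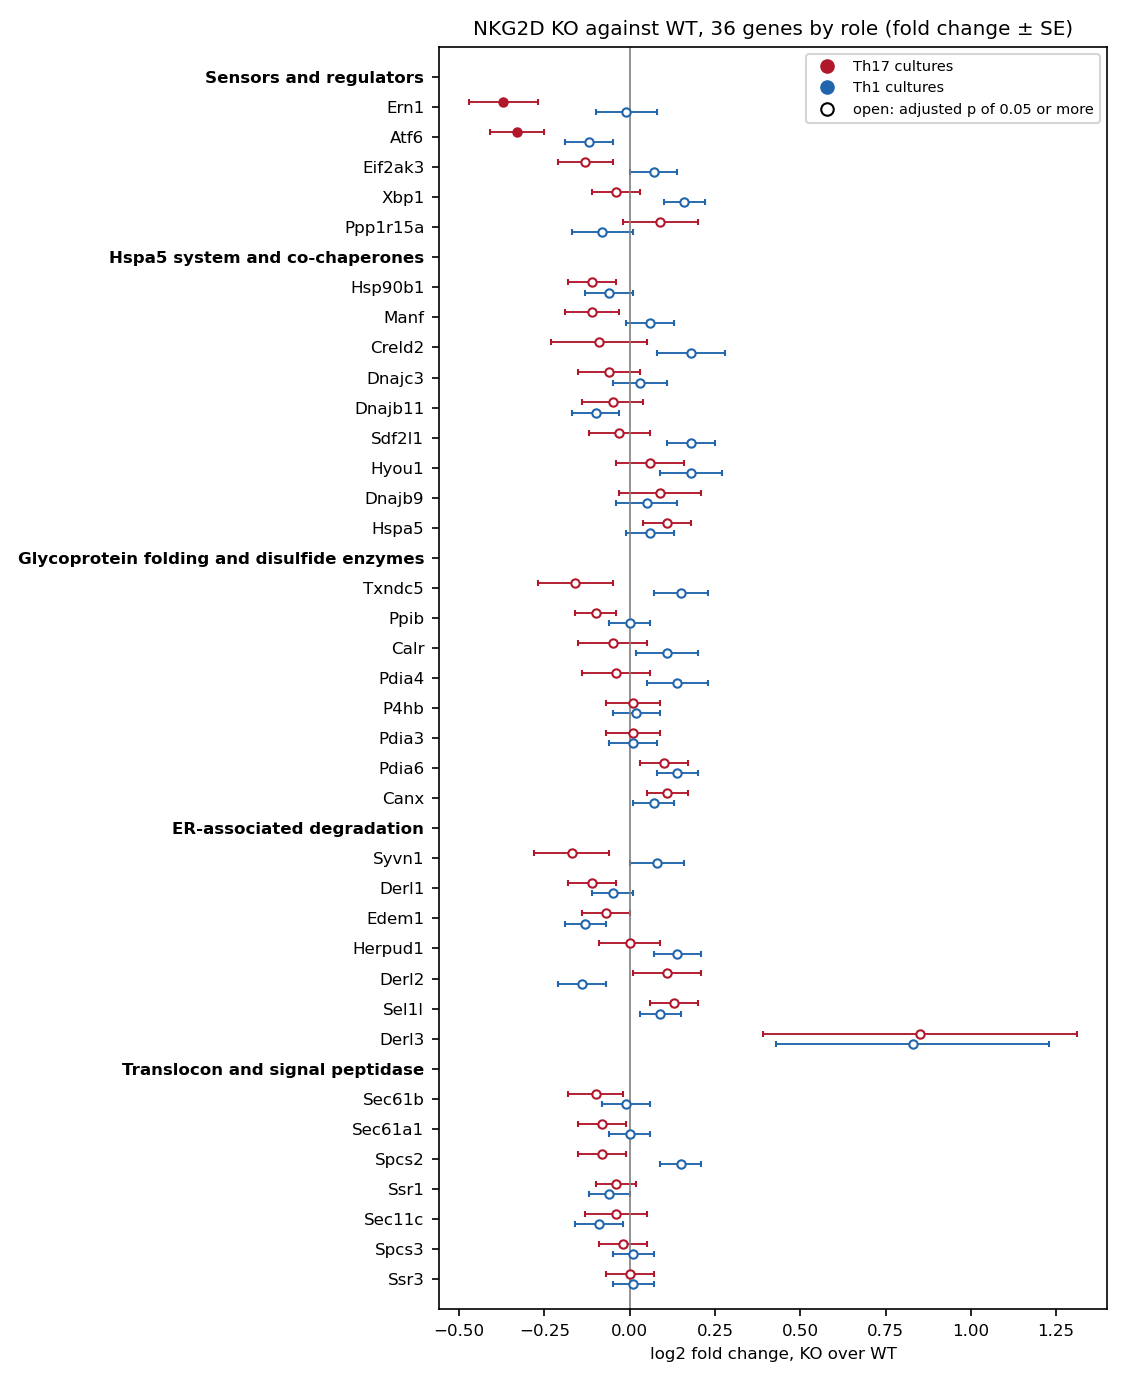
Log2 fold change of KO over WT (x axis; point ± SE) for the 36 genes in Th17 cultures (red) and Th1 cultures (blue), grouped by role, with open points where the adjusted p was 0.05 or more. Filled points are Ern1 at -0.37 and Atf6 at -0.33 in Th17 cultures, and Derl3 has wide bars from its low counts.

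Whether the genotype difference itself differs between the cultures was tested as an interaction, and 0 of the 36 genes passed (edgeR, with 4 at an unadjusted p under 0.05; DESeq2 and limma-voom called 0), while 0.591% of all genes tested did. The lowest p was that of Ern1, whose KO over WT log2 fold change in Th17 minus that in Th1 cells was -0.37 ± 0.14 (adjusted p = 0.306). For Spcs2 it was -0.23 ± 0.10 (adjusted p = 0.397). The genotype differences of Atf6 and Ern1 in Th17 cells were thus not shown to differ from those in Th1 cells, and the interaction of Atf6 was -0.20 ± 0.10 (adjusted p = 0.52).

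Genes of the same pathway outside the 36 gave single calls between the genotypes. In Th17 cells Atf5, a transcription factor of the ATF4 branch (-0.84 ± 0.22, adjusted p = 0.0224), March6, an ER ubiquitin ligase (-0.31 ± 0.08, adjusted p = 0.0226), and Ddost, of the oligosaccharyltransferase (-0.24 ± 0.07, adjusted p = 0.034), were lower in KO cells. Over the alternatives their adjusted p reached 0.156, 0.512 and 0.139, and each was lost without Th17 WT 1, without Th17 WT 2 and without Th17 KO 1. Atf5 was also lost without Th17 KO 3, and Ddost, which 8 of 21 alternatives kept, without Th17 KO 3, Th17 WT 3, Th1 KO 2 or Th1 WT 2. With DESeq2 Atf5 and Ddost did not pass (adjusted p = 0.0734 and 0.0703), and with limma-voom Atf5, March6 and Ddost did not. The libraries of March6 overlapped, at 93.5 to 106 CPM in Th17 KO and 101 to 131 CPM in Th17 WT. In Th1 cells Edem2, a mannosidase of degradation (0.34 ± 0.07, adjusted p = 0.00584), Prdx4, an ER peroxiredoxin (0.33 ± 0.08, adjusted p = 0.0192), and Surf4, a cargo receptor (0.23 ± 0.05, adjusted p = 0.0139), were higher in KO cells. Prdx4 was lost without Th1 KO 1, Th1 KO 2 or any 1 of the Th1 WT libraries (adjusted p up to 0.122 over all alternatives) and Surf4 without any 1 of the 6 Th1 libraries (adjusted p up to 0.0652). Prdx4 also did not pass with DESeq2 (adjusted p = 0.0943). Each of these 7 lists had at most 1 call in a genotype comparison, out of 12 to 23 genes tested per list, which is 0% to 8.33% of a list, while the shares over all genes tested were those given above (4.61% in Th1 cells, and 4.02% lower and 1.81% higher in Th17 cells).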

How the data were processed

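RNA of 12 samples was measured with the SMART-Seq v4 kit, which does not mark strand, and Nextera XT, per the labels' protocols. The deposited values are raw read counts per Ensembl ID with no normalisation. The submitters' processing notes list TopHat2, Bowtie2, featureCounts and the build GRCm38 (mm10). Versions, strand setting, annotation release and the treatment of reads matching several places are not given in the sources used here. Each table held 39179 IDs, of which 37693 were named with GENCODE M21, whose exon lengths gave the levels per kb.

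Counts were TMM-scaled and filtered with filterByExpr in edgeR 4.0.16 (R 4.3.3), which left 12189 genes, and tested with its quasi-likelihood F-test over all 12 libraries. P-values were adjusted by Benjamini-Hochberg over all genes within each comparison, at a threshold of 0.05. SE is the size of the log2 fold change divided by the square root of F, and CPM are given as mean ± SD, and 3 against 3 libraries cannot give an exact permutation p under 0.1. Library totals ran from 1647232 to 12688637, so low genes are least precise in the 3 shallow libraries.

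The gene list, the other lists and the rules were chosen with earlier results of these data known. By rule, Xbp1, Atf6, Ern1, Eif2ak3, Hspa5 and up to 6 genes of smallest p past the threshold per comparison (3, or 2 for the interaction, where none passed) are given in every library; other lists have up to 3 named genes. Library numbers 1 to 3 follow accession order, and the labels do not say whether they pair libraries. Alternatives were RLE size factors, DESeq2 1.42.0, limma-voom with sample weights (limma 3.58.1), no filter, thinning to 844327 counts (the smallest total without the dominant ID), a block by library code, no shallow libraries, no dominant ID, only the groups compared, and each library left out. The edgeR, limma-voom and DESeq2 fits over all libraries were tested on simulated counts, and the other alternatives were not. Protein C-termini were not analysed here. Promoter sequences are from RefSeq (GRCm38.p6). Tables were made in Python 3.11.15 with pandas 2.3.3 and figures with matplotlib 3.10.9.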

Additional observations from a re-analysis of the deposited data

How the results depend on the processing

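Between the cultures the counts of genes called were within 1.5 times of those reported under each alternative run: 19 to 25 with WT and 26 to 28 with KO cells when single libraries were left out, and 16 to 25 and 21 to 29 otherwise, the lowest with libraries thinned, which tests 35 of the genes at a lower depth. The interaction gave 0 throughout. For Th17 KO against WT, where 2 genes were called, 0 to 2 were called when single libraries were left out, 1 with DESeq2, 1 with limma-voom, 1 without the shallow libraries, 0 with libraries thinned and 0 with only the groups compared in the fit. For Th1 KO against WT, where 0 were called, leaving out single libraries gave 0, limma-voom 2 and only the groups compared 2. Over all genes tested, limma-voom called 1071 of 12189 and the fit of only the groups compared 922 of 11680. The reported fit called 562 of 12189, and the cause was not tested. Of the values of single genes, none reversed a called direction. Thinning moved Ppp1r15a with WT cells to 0.72 (adjusted p = 0.004), Ern1 and Herpud1 with KO cells to 0.56 and -0.38 (adjusted p = 0.0368 and 0.023). It also ended calls whose values moved by over 1.5 times: with WT cells Pdia6 and Derl1 (both -0.13, adjusted p = 0.416 and 0.503), Creld2 (-0.43, 0.0934) and Spcs3 (0.11, 0.485), and with KO cells Eif2ak3 (-0.21, 0.278) and Manf (-0.30, 0.0661). Labels give no replicate numbers. Libraries whose codes stand next to each other correlated in their deviations from the group means at 0.136, 0.0287 and 0.166 in Th1. In Th17 the values were 0.226, 0.0259 and -0.0622. Other KO and WT pairs ran from -0.158 to 0.0241 in Th1, below all 3, and from -0.186 to 0.109 in Th17, which overlapped. Between the cultures of a genotype the correlation was 0.0328 to 0.0925 at the same place in code order and -0.0827 to 0.00269 at other places. Libraries of the same place thus tended to deviate together, except for KO and WT in Th17. The labels name no pairs, so the block by code was used only as an alternative. With this replicate block 3 genes were called in Th1 KO against WT (Xbp1, Sdf2l1 and Hyou1, all higher), 2 in Th17 KO against WT, 25 and 29 between the cultures in WT and KO cells, and 0 for the interaction. Over all genes tested the block raised the calls of KO against WT from 562 to 1315 in Th1 and from 711 to 1117 in Th17. Depth limits the shallow libraries most: 3 counts equal 3.15 CPM in Th17 KO 2, 1.19 in Th17 WT 2 and 3.11 in Th17 WT 3, against at most 0.284 CPM in the others.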
